A study of Mus musculus with 16 samples.

Results

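The genes described here are 10 protein-coding genes of mouse liver, Gria3, Clec2h, Ptgds, Adamts7, Zfp618, Asb2, Chrna4, Atp4a, Cyp17a1 and Fabp5, out of 33730 genes in the deposited count table. They were picked by name because their levels had been higher in Nrf2-null than in wild-type liver, with or without drug, in the same libraries. Their KO minus WT differences are therefore a description of what chose them, given without a test, and nothing rests on them. All 10 passed the filter on low counts, which kept 16206 genes, but a gene that is high in 1 genotype passes that filter more easily.

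Bulk RNA-seq of C57BL/6 liver removed at partial hepatectomy (day 0) was available from 4 groups of 4 libraries. The KO untreated group was Nrf2-/- without any injection, and the WT DMSO group was wild type given 1 µL/g of the vehicle DMSO. KO CDDO-Me was Nrf2-/- and WT CDDO-Me was wild type, both given 3 mg/kg CDDO-Me, a triterpenoid activator of NRF2, dissolved in DMSO. Injections were intraperitoneal, 24 h and 1 h before the operation. The KO controls lacked the vehicle that the WT controls received, so genotype and vehicle cannot be told apart between KO untreated and WT DMSO. The labels give no age or sex and do not tie each library to a separate animal, so the p-values measure the spread between these samples.

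NRF2, encoded by Nfe2l2, is a transcription factor that KEAP1 holds back until electrophiles or drugs such as CDDO-Me release it. In liver it is known for raising the genes of glutathione use, quinone reduction and NADPH supply, through antioxidant response elements in their regulatory DNA. The 10 genes are not members of that classic set. They encode receptor and ion pump subunits, lipid and steroid handling proteins, and proteins of the cell surface, matrix and nucleus, several of them best known outside the liver.

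Promoter windows from RefSeq (GRCm38.p6, 250 bases before to 50 bases after a start) matched 6 of the 10 genes, with 7 windows in all. Gria3, Adamts7, Cyp17a1 and Fabp5 are named only. Both strands were searched for 6 short motifs: the antioxidant response element core TGACNNNGC, the AP-1 site TGANTCA, the STAT site TTCNNNGAA, the E-box CACGTG, the nuclear receptor motif AGGTCA and the TATA motif TATAAA. The 4 windows printed here show the windows with matches and the GC-rich window of Chrna4, with matches in capitals, written 5′ to 3′ on the gene's own strand.
Ptgds (chr2:25469700-25469999, minus strand): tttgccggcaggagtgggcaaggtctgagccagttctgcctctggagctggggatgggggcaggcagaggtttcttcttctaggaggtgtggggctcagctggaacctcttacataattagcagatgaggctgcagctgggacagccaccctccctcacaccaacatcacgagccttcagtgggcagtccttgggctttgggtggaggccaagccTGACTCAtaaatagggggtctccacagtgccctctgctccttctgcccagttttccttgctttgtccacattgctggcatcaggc
Clec2h (chr6:128662135-128662434, plus strand): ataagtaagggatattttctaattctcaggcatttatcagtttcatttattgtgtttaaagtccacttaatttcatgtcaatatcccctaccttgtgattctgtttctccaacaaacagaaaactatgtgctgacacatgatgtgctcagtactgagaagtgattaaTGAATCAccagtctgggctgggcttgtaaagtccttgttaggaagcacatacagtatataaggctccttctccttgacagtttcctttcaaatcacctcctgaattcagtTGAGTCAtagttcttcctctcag
Asb2 (chr12:103355952-103356251, minus strand): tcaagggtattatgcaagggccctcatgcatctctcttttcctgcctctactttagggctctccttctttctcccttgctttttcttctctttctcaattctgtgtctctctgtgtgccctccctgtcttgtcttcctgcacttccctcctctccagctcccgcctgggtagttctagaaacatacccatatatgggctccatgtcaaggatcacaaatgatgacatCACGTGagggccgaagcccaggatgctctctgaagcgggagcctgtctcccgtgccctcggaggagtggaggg
Chrna4 (chr2:181039128-181039427, minus strand): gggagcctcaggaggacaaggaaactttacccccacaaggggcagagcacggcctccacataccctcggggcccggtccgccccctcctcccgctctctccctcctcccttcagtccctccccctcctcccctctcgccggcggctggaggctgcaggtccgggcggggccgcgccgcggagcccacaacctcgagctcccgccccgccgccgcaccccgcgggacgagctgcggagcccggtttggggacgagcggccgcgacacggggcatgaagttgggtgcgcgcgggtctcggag

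The window of Ptgds held the AP-1 motif 35 bases before its start, and that of Clec2h held it 83 bases before and 27 bases after its start. The first window of Asb2 held the E-box 23 bases before its start. AP-1 was thus in 2 of 7 windows, against 7.81% of 32851 promoters, and the E-box in 1 of 7, against 7.15%. The antioxidant response element core was in 0 of 7 windows and in 12.4% of all promoters. STAT (8.3% of all promoters), AGGTCA (16.3%) and TATAAA (13.6%) were also in 0 of 7. Base composition differed widely among the windows, with a GC content of 88.0% in Zfp618, 74.3% in Chrna4 and 38.0% in Clec2h, against a median of 52.7% over all promoters. Such matches only say which letters lie in these windows.

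Levels are given as CPM, the read count of a gene scaled to the library total after TMM scaling, for libraries 1 to 4 of each group in order. Log2 differences are edgeR estimates with their standard error (SE). Among all tested genes, 2.87% had all KO untreated libraries above all WT DMSO libraries, and 9.25% had all KO CDDO-Me libraries above all WT CDDO-Me libraries. Of the 10 genes 8 did so in each comparison, a count that the choice of genes fixes in large part.

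**Figure D1:**
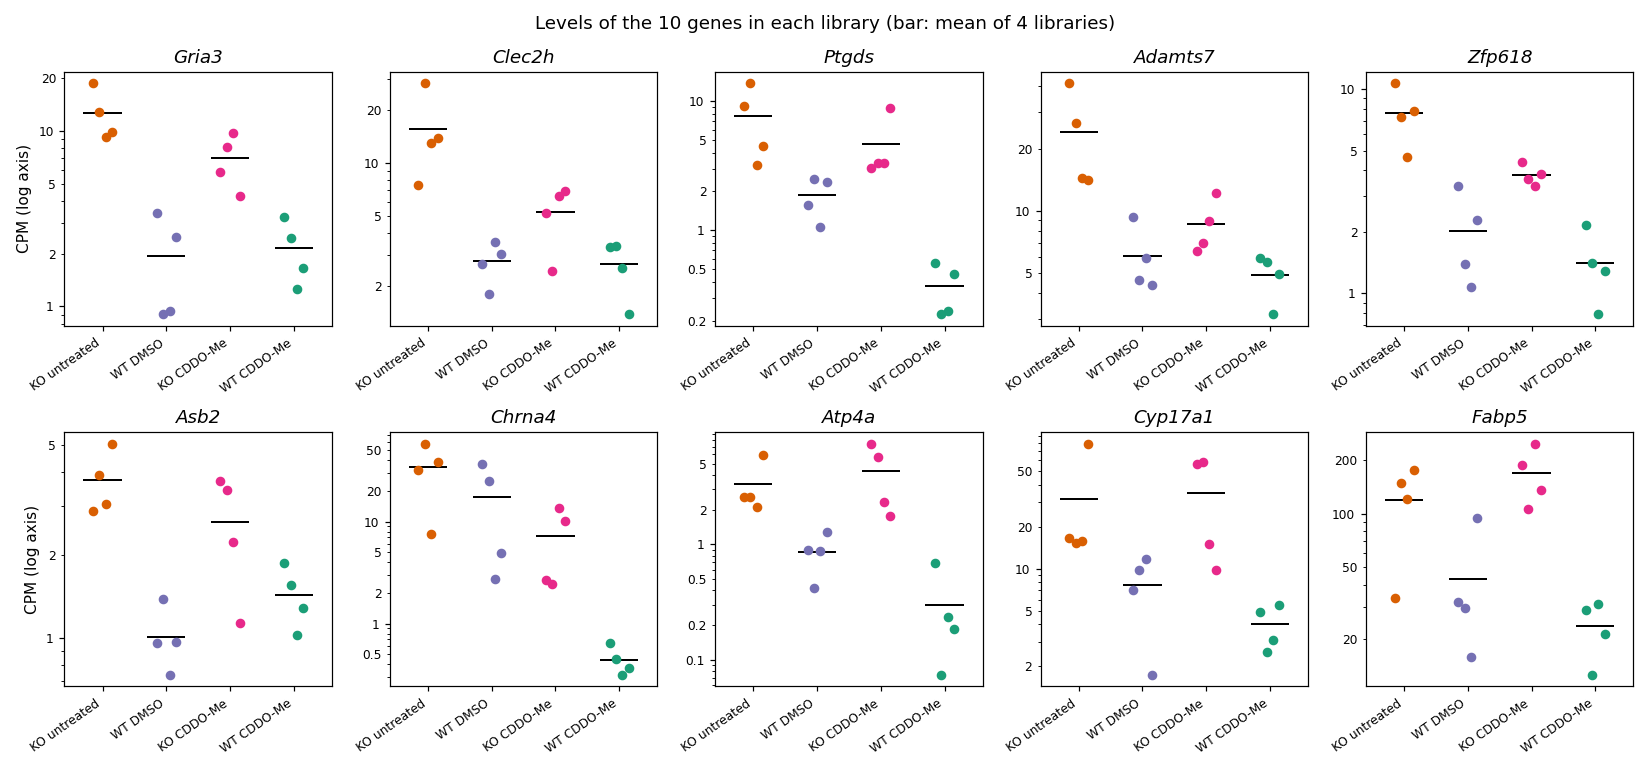
CPM (log axis) of each of the 10 genes in each library, with points placed in the order of the library numbers 1 to 4 and a bar at the mean of the 4 libraries. Gria3, Ptgds, Zfp618 and Atp4a have all 8 KO libraries above all 8 WT libraries, though Zfp618 is nearly a tie (3.345 against 3.343 CPM). Chrna4 is at most 0.648 CPM in the WT CDDO-Me libraries.

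Gria3 (ENSMUSG00000001986, chromosome X, 41400854 to 41678601, plus strand, GRCm38) encodes an AMPA-type glutamate receptor subunit, a ligand-gated cation channel of fast excitatory synapses. Its level was 18.5, 12.8, 9.16 and 9.84 CPM in KO untreated livers, against 3.41, 0.902, 0.937 and 2.48 CPM in WT DMSO livers. Every KO untreated library was above every WT DMSO library, and the lowest WT values were in libraries 2 and 3. With the drug it was 5.83, 8.09, 9.68 and 4.26 CPM in KO CDDO-Me livers, against 3.24, 2.46, 1.26 and 1.65 CPM in WT CDDO-Me livers. These groups did not overlap either, although KO CDDO-Me 4 lay close to the highest WT library. The log2 difference was 2.69 ± 0.43 without drug and 1.64 ± 0.41 under CDDO-Me.

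Chrna4 (ENSMUSG00000027577, chromosome 2, 181018380 to 181043546, minus strand) encodes the alpha subunit that pairs with Chrnb2 in the main nicotinic acetylcholine receptor of brain. It measured 32.3, 58.2, 7.55 and 38.3 CPM in KO untreated livers, against 37.2, 24.8, 2.74 and 4.91 CPM in WT DMSO livers. The groups overlapped, since WT DMSO 1 exceeded KO untreated 1 and 3, and KO untreated 3 and WT DMSO 3 and 4 were all low. Under CDDO-Me it measured 2.67, 2.44, 13.5 and 10.2 CPM in KO livers and 0.648, 0.447, 0.316 and 0.367 CPM in WT livers. All 4 WT CDDO-Me libraries lay below all other 12 libraries. Their reads numbered 68.0, 6.00, 4.00 and 4.00, so 3 of these levels rest on few reads. KO minus WT was 0.97 ± 0.72 on the log2 scale without drug and 3.84 ± 0.92 with it, the largest difference under drug among the 10. The difference without drug was 0.59 when KO untreated 2 was left out and 1.67 when WT DMSO 1 was left out.

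Atp4a (ENSMUSG00000005553, chromosome 7, 30712209 to 30725534, plus strand) encodes the catalytic subunit of the gastric proton pump. Untreated KO livers had 2.59, 2.56, 2.12 and 5.97 CPM, against 0.887, 0.416, 0.870 and 1.29 CPM in WT DMSO livers. The ranges were apart, with KO untreated 4 well above its group. KO CDDO-Me livers had 7.45, 5.74, 2.33 and 1.75 CPM, against 0.695, 0.0744, 0.237 and 0.184 CPM in WT CDDO-Me livers. All KO libraries again exceeded all WT libraries, and the WT level under drug came from 73.0, 1.00, 3.00 and 2.00 reads. The log2 difference was 1.91 ± 0.56 without and 3.47 ± 0.60 with CDDO-Me. Its partner subunit of the stomach pump, Atp4b, was at 0 CPM on average in KO untreated, WT DMSO and KO CDDO-Me livers.

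Ptgds (ENSMUSG00000015090, chromosome 2, 25466709 to 25470046, minus strand) encodes lipocalin-type prostaglandin D synthase, an enzyme that is also a carrier of small lipophilic molecules. KO untreated libraries held 9.14, 13.8, 3.21 and 4.52 CPM, against 1.57, 2.50, 1.07 and 2.39 CPM in WT DMSO libraries. KO untreated 1 and 2 were the highest, and the lowest KO value lay above the highest WT value. KO CDDO-Me libraries held 3.04, 3.30, 3.35 and 8.94 CPM, against 0.562, 0.223, 0.237 and 0.459 CPM in WT CDDO-Me libraries. The WT level under drug was low in each library, from 59.0, 3.00, 3.00 and 5.00 reads, and KO CDDO-Me 4 stood above its group. The log2 difference came to 2.01 ± 0.48 in the controls and 3.49 ± 0.55 under CDDO-Me.

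Cyp17a1 (ENSMUSG00000003555, chromosome 19, 46667165 to 46673172, minus strand) encodes the steroid hydroxylase and lyase that opens the route to androgens. In KO untreated livers it reached 16.8, 15.3, 15.7 and 78.8 CPM, against 7.03, 9.78, 11.8 and 1.74 CPM in WT DMSO livers. KO untreated 4 was far above the rest of its group and WT DMSO 4 far below the rest of its own. In KO CDDO-Me livers it reached 56.5, 57.9, 15.0 and 9.73 CPM, against 4.89, 2.53, 3.08 and 5.51 CPM in WT CDDO-Me livers. KO CDDO-Me 1 and 2 formed a high pair, and neither comparison overlapped. The log2 difference was 2.07 ± 0.68 and 3.10 ± 0.72 without and with drug, with the wide errors that this spread gives. Without KO untreated 4 the difference without drug was 1.08.

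Fabp5 (ENSMUSG00000027533, chromosome 3, 10012548 to 10016607, plus strand) encodes a fatty acid carrier of the cytosol best known from epidermis. Its CPM was 33.6, 147, 121 and 175 in KO untreated livers, against 31.9, 29.5, 15.9 and 95.003 in WT DMSO livers. These groups overlapped, because KO untreated 1 was low and WT DMSO 4 was high. Its CPM was 186, 106, 246 and 135 in KO CDDO-Me livers, against 28.8, 12.6, 31.4 and 21.3 in WT CDDO-Me livers. Under drug the lowest KO library was more than 3-fold above the highest WT library. KO minus WT was 1.47 ± 0.52 in the controls and 2.84 ± 0.55 under drug on the log2 scale. Without WT DMSO 4 the difference in the controls was 2.21.

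Clec2h (ENSMUSG00000030364, chromosome 6, 128662385 to 128677374, plus strand) encodes a C-type lectin-like membrane protein of the natural killer gene complex, where relatives serve as ligands of Klrb1-type receptors. The KO untreated values were 7.52, 28.2, 12.9 and 13.8 CPM, and the WT DMSO values were 2.66, 1.804, 3.55 and 3.03 CPM. The lowest KO library still exceeded the highest WT library. The KO CDDO-Me values were 5.18, 2.44, 6.47 and 6.95 CPM, and the WT CDDO-Me values were 3.31, 3.35, 2.53 and 1.38 CPM. KO CDDO-Me 2 lay inside the WT range, so these groups overlapped. The log2 difference was 2.49 ± 0.41 without and 0.97 ± 0.40 with drug.

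Adamts7 (ENSMUSG00000032363, chromosome 9, 90163069 to 90208071, plus strand) encodes a secreted metalloprotease known to cleave cartilage oligomeric matrix protein. There were 41.4, 26.7, 14.4 and 14.1 CPM in KO untreated livers, against 9.35, 4.65, 5.95 and 4.36 CPM in WT DMSO livers. KO untreated 1 and 2 were the high pair, and the groups were apart. There were 6.39, 7.04, 8.95 and 12.2 CPM in KO CDDO-Me livers, against 5.90, 5.66, 3.16 and 4.96 CPM in WT CDDO-Me livers. The ranges did not overlap, but the lowest KO CDDO-Me library was close to the highest WT one. The log2 differences were 1.99 ± 0.36 and 0.80 ± 0.35 without and with drug. The gene overlaps Tbc1d2b on the other strand, and the strand setting of the counting is not given in the sources used here. Tbc1d2b itself differed by -0.18 without drug (adjusted p = 0.789, edgeR) and by -0.38 with drug (adjusted p = 0.353, edgeR).

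Asb2 (ENSMUSG00000021200, chromosome 12, 103321142 to 103356001, minus strand) encodes the substrate-binding subunit of a cullin ubiquitin ligase that directs filamins to the proteasome. KO untreated livers gave 2.89, 3.91, 3.07 and 5.07 CPM, against 0.955, 1.39, 0.736 and 0.964 CPM in WT DMSO livers, with no overlap. KO CDDO-Me livers gave 3.72, 3.45, 2.23 and 1.13 CPM, against 1.87, 1.56, 1.03 and 1.29 CPM in WT CDDO-Me livers. KO CDDO-Me 4 lay inside the WT range, so the treated groups overlapped. KO minus WT was 1.89 ± 0.36 without and 0.83 ± 0.34 with drug on the log2 scale. An antisense gene, Gm15523, overlaps Asb2, and its reads cannot be told apart without a known strand setting.

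Zfp618 (ENSMUSG00000028358, chromosome 4, 62965573 to 63139708, plus strand) encodes a zinc finger protein whose human counterpart is known to bind hydroxymethylated DNA together with UHRF2. KO untreated livers showed 10.7, 7.34, 4.67 and 7.80 CPM, against 3.34, 1.39, 1.07 and 2.30 CPM in WT DMSO livers. KO CDDO-Me livers showed 4.41, 3.64, 3.35 and 3.85 CPM, against 2.15, 1.41, 0.790 and 1.29 CPM in WT CDDO-Me livers. No KO library came below a WT library in either comparison, and the KO CDDO-Me libraries lay close together. The log2 difference was 1.91 ± 0.35 without and 1.36 ± 0.35 with drug.

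Over the 10 genes the median log2 difference was 1.95 without drug and 2.24 under CDDO-Me, against medians of 0.00 and -0.01 over all 16206 genes. The difference was larger without drug for Gria3, Clec2h, Adamts7, Zfp618 and Asb2. For Ptgds, Chrna4, Atp4a, Cyp17a1 and Fabp5 it was larger under drug. In 4 of 10 genes, Gria3, Ptgds, Zfp618 and Atp4a, all 8 KO libraries lay above all 8 WT libraries, a pattern that 0.358% of all tested genes showed. For Zfp618 this was nearly a tie, with a lowest KO value of 3.345 CPM and a highest WT value of 3.343 CPM. Both comparisons are part of what chose the genes, and no test is given.

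**Figure D2:**
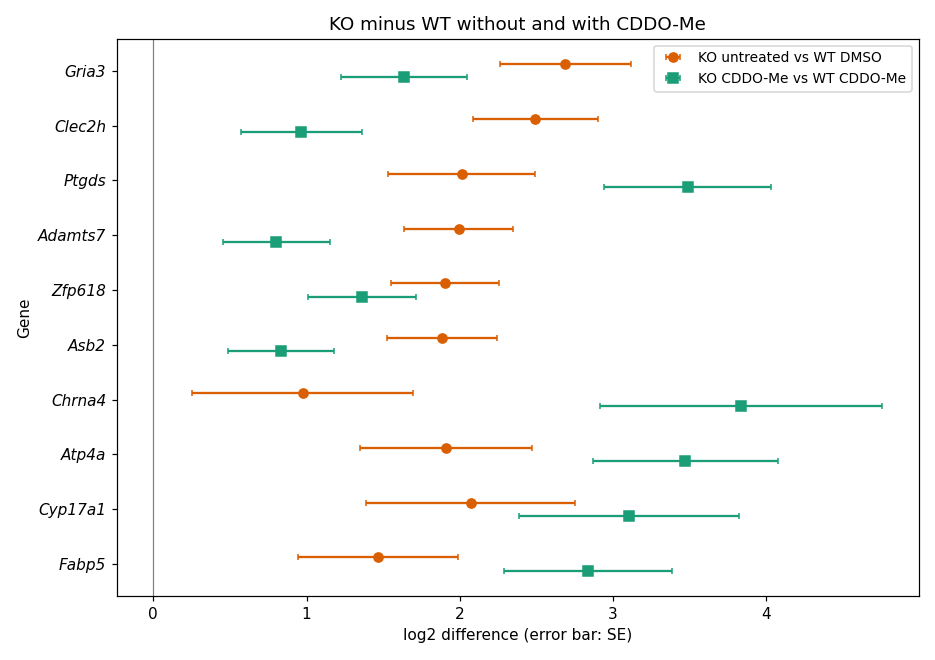
Log2 difference KO minus WT of each gene, without drug (KO untreated vs WT DMSO, circles) and under drug (KO CDDO-Me vs WT CDDO-Me, squares), with bars of 1 SE. The first 6 genes apart from Ptgds sit further right without drug, and Ptgds, Chrna4, Atp4a, Cyp17a1 and Fabp5 sit further right under drug.

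Levels of different genes were compared per kilobase of gene length, as FPKM. Fabp5 had the highest FPKM in every group, with 36.2 ± 17.1 in KO untreated, 11.5 ± 7.34 in WT DMSO, 46.0 ± 15.5 in KO CDDO-Me and 5.97 ± 2.42 in WT CDDO-Me livers (SD, n = 4 each). In KO untreated livers the FPKM order went on with Cyp17a1 (15.5), Chrna4 (8.04), Clec2h (6.58), Ptgds (5.65), Adamts7 (4.73), Gria3 (1.53), Asb2 (1.19), Atp4a (0.974) and Zfp618 (0.966). No neighbours in that order were apart in every library. The WT DMSO order put Chrna4 (3.97 FPKM) and Cyp17a1 (3.67 FPKM) next, then Ptgds (1.17), Adamts7 (1.01) and Clec2h (1.001). There only Clec2h was above its next neighbour, Asb2 (0.297 FPKM), in all libraries, and Zfp618 (0.224), Atp4a (0.222) and Gria3 (0.201) came last.

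In KO CDDO-Me livers Fabp5 was above the next gene, Cyp17a1 (15.8 FPKM), in every library. Below them stood Ptgds (2.79 FPKM), Clec2h (1.90), Chrna4 (1.39), Adamts7 (1.35), Atp4a (1.13), Asb2 (0.730), Gria3 (0.686) and Zfp618 (0.401), with no neighbours apart in every library. In WT CDDO-Me livers Fabp5 was again apart from Cyp17a1 (1.66 FPKM). The others there were Clec2h (0.917 FPKM), Adamts7 (0.721), Asb2 (0.376), Gria3 (0.206), Ptgds (0.205), Zfp618 (0.141), Chrna4 (0.0827) and Atp4a (0.0761). By mean FPKM Chrna4 thus stood at rank 2 in WT DMSO livers and at rank 9 in WT CDDO-Me livers. Its WT DMSO mean had an SD of 4.01, with 8.68 and 5.92 FPKM in WT DMSO 1 and 2. In WT DMSO 3 and 4 it was at 0.480 and 0.791 FPKM, below Ptgds at 0.570 and 1.17 FPKM. Alb, the main hepatocyte product, averaged 45179 to 59632 CPM in the 4 groups, so all 10 genes are minor transcripts in this tissue.

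The comparison that the choice of genes did not name is the drug averaged over genotypes, that is, the KO and WT CDDO-Me groups minus the KO untreated and WT DMSO groups. It is not wholly separate from that choice: in the fit its error correlated at -0.30 with that of KO CDDO-Me minus WT CDDO-Me for Chrna4, at -0.24 for Ptgds and at -0.21 for Atp4a, and at -0.07 to -0.01 for the other 7 genes. With KO untreated minus WT DMSO it correlated at 0.01 to 0.10 over the 10 genes. Its KO part also holds the vehicle as well as the drug. Chrna4 fell, with 7.22 and 0.444 CPM on average in KO CDDO-Me and WT CDDO-Me livers, against 34.1 and 17.4 CPM in KO untreated and WT DMSO livers. Its averaged log2 difference was -3.66 ± 0.60 (SE; adjusted p = 0.0095, edgeR quasi-likelihood test with Benjamini-Hochberg adjustment over 16206 genes). It was the 1 gene of the 10 that passed, against 1.19% of all genes. The call was lost without the 4 control libraries rich in intronic reads (-2.29, adjusted p = 0.139) and with only the libraries low in ribosomal RNA (-2.55, adjusted p = 0.259), over a range of adjusted p of 1.67e-07 to 0.259 in 26 other settings (edgeR, DESeq2 and limma).

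The other 9 genes did not pass. Ptgds had an averaged difference of -1.45 ± 0.36 (adjusted p = 0.0588, edgeR) and Adamts7 one of -0.88 ± 0.25 (adjusted p = 0.0803, edgeR). Both passed by DESeq2, with an adjusted p of 0.00383 for Ptgds and 0.0181 for Adamts7. DESeq2 called 1304 genes in all for this comparison, against 193 by edgeR. Zfp618 stood at -0.73 ± 0.25 (adjusted p = 0.109, edgeR) and Clec2h, the lectin-like gene, at -0.80 ± 0.28 (adjusted p = 0.118, edgeR). Without both WT DMSO 4 and WT CDDO-Me 1, Ptgds, Adamts7 and Zfp618 passed too, Zfp618 at an adjusted p of 0.0484 (edgeR). In that fit 1936 of all genes were called. For Gria3, Atp4a, Cyp17a1 and Fabp5 the averaged log2 difference was between -0.41 and -0.19, and for Asb2 it was 0.01 ± 0.24. The sign of Asb2, Cyp17a1 and Fabp5 changed with the setting. The number of the 10 that passed was 3 without WT DMSO 4, KO untreated 3 or KO untreated 4 and 2 without WT DMSO 3 or KO CDDO-Me 4. Over all genes 1859, 502, 897, 461 and 123 were called in these fits in that order, against 193 in the main fit. At an unadjusted p under 0.05 there were 5 of 10 genes, against 25.6% of all genes. The median of the 10 was -0.57, against -0.03 over all genes, and 9 of 10 values were negative. Of all genes 47.5% were positive. Choosing genes high in KO under drug leans these values downward, by the negative error correlations given above. The positive correlations with the control comparison lean the other way. How far the choice moved the values was not tested, so their common direction is only a description.

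**Figure D3:**
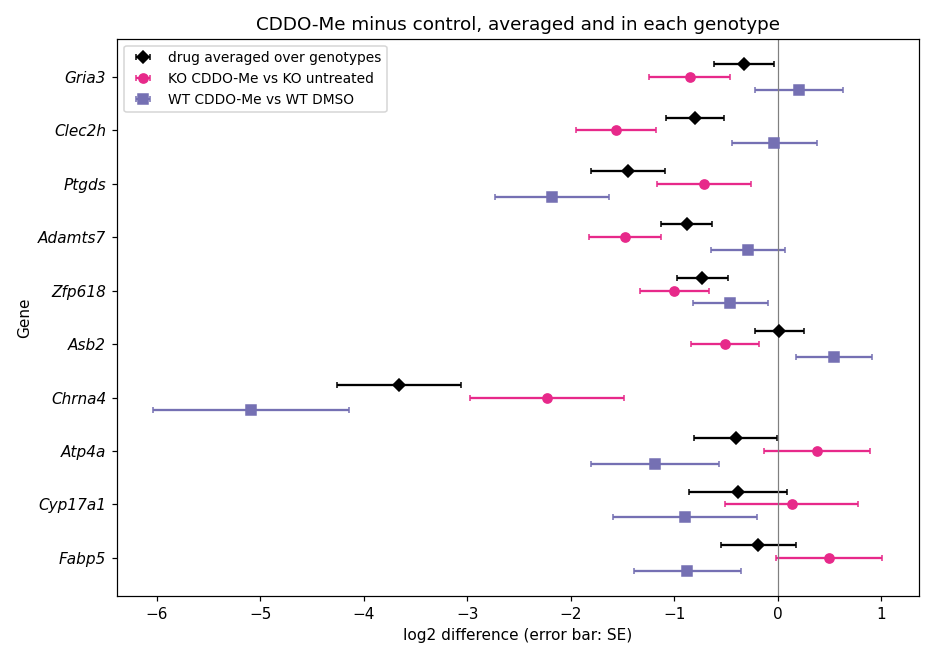
Log2 difference CDDO-Me minus control of each gene, averaged over genotypes (diamonds), in KO livers (circles) and in WT livers (squares), with bars of 1 SE. Chrna4 lies furthest left in all 3, and Clec2h, Adamts7 and Gria3 lie further left in KO than in WT livers.

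Within a genotype the drug differences share libraries with the comparisons that chose the genes, so they are given without a test. In KO livers Chrna4 (-2.23 ± 0.75, log2 KO CDDO-Me minus KO untreated), Clec2h (-1.56 ± 0.39), Adamts7 (-1.48 ± 0.35) and Zfp618 (-1.00 ± 0.33) had the lowest values. Clec2h, Adamts7 and Zfp618 had all 4 KO CDDO-Me libraries below all 4 KO untreated libraries, as 4.5% of all genes did. Gria3 was at -0.85 ± 0.39, Ptgds at -0.71 ± 0.45 and Asb2 at -0.51 ± 0.33. Cyp17a1 (0.13 ± 0.64), Atp4a (0.37 ± 0.51) and Fabp5 (0.50 ± 0.51) were positive in KO livers, within about 1 SE of 0. Single libraries moved these values: Cyp17a1 was at -0.23 without KO CDDO-Me 2 and 1.13 without KO untreated 4, and Atp4a at -0.03 without KO CDDO-Me 1 and 0.83 without KO untreated 4.

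In WT livers the lowest values were those of Chrna4 (-5.09 ± 0.94, log2 WT CDDO-Me minus WT DMSO) and Ptgds (-2.18 ± 0.55). These genes had all WT CDDO-Me libraries below all WT DMSO libraries, as 2.84% of all genes did. The Chrna4 value was -5.49 to -4.39 with each library left out and -5.80 to -1.75 in the other settings. Its level was 37.2 and 24.8 CPM in the intron-rich WT DMSO 1 and 2, against 2.74 and 4.91 CPM in WT DMSO 3 and 4. Atp4a stood at -1.19 ± 0.62, Cyp17a1 at -0.90 ± 0.70 and Fabp5 at -0.87 ± 0.52. The Fabp5 value was -0.12 without WT DMSO 4, and that of Atp4a was -2.38 without WT CDDO-Me 1. Zfp618 (-0.46 ± 0.36), Adamts7 (-0.29 ± 0.36), Clec2h (-0.04 ± 0.41), Gria3 (0.20 ± 0.43) and Asb2 (0.54 ± 0.37) were nearer 0. The Adamts7 and Ptgds values in KO livers lean on KO untreated 1 and 2. Without the 4 intron-rich control libraries they were -0.70 for Adamts7 and 0.30 for Ptgds, a change of sign for Ptgds.

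Library measures moved partly with the groups. Totals ran from 12002317 to 99284626 reads, the deepest being WT CDDO-Me 1, and 20453 to 27594 genes had a read. Reads of sense-intronic and unconfirmed genes made 0.673% to 0.967% of KO untreated 1 and 2 and WT DMSO 1 and 2, and 0.186% to 0.407% of the other 12. Ribosomal RNA genes made 0.00108% to 0.0368% of all KO libraries, WT DMSO 4 and WT CDDO-Me 1, and 0.173% to 0.634% of the other 6 WT libraries. Nfe2l2 itself had 19.9 to 51.7 CPM in KO untreated livers, 42.8 to 74.9 CPM in WT DMSO, 15.7 to 21.0 CPM in KO CDDO-Me and 36.6 to 45.5 CPM in WT CDDO-Me livers. The library labelled KO untreated 1 lay inside the WT range for Nfe2l2, but reads outside the deleted part, which the labels do not give, check nothing. The summed level of 20 NRF2 target genes was 756 to 1142 CPM in KO untreated libraries, including the one labelled KO untreated 1, against 2052 to 3150 CPM in WT DMSO libraries.

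The KO minus WT values of the 10 genes, which chose them, are given here for parts of the libraries as a description. In a fit with only the libraries low in ribosomal RNA, with 1 WT library in each comparison assumed to vary like the other groups, the KO minus WT values ranged from 0.30 (Fabp5) to 4.15 (Cyp17a1) without drug and from 0.49 (Asb2) to 3.49 under drug. Without the library labelled KO untreated 1, all 10 control differences were between 0.99 (Chrna4) and 2.73.

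**Figure D4:**
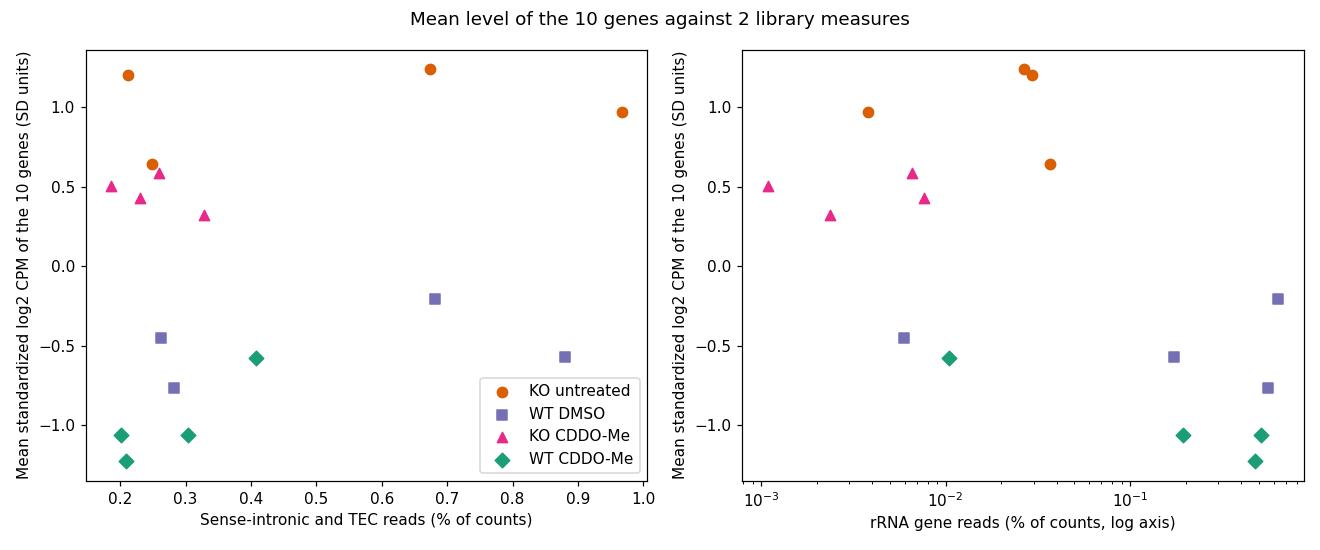
Mean of the standardized log2 CPM of the 10 genes in each library (in SD units over the 16 libraries) against the percent of reads from sense-intronic and unconfirmed genes (left) and from ribosomal RNA genes (right, log axis). KO untreated libraries lie at 0.641 to 1.24 and WT DMSO at -0.766 to -0.206. KO CDDO-Me libraries lie at 0.324 to 0.589 and WT CDDO-Me at -1.22 to -0.574. The WT libraries low in ribosomal RNA, WT DMSO 4 and WT CDDO-Me 1, lie below all KO libraries. The genes were chosen for higher levels in KO than in WT in these libraries, which fixes this order in large part. The part of library type in it was not tested.

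Markers of other cell types moved with genotype in part. In bulk tissue, more cells of a type and more RNA per cell cannot be told apart. The 14 lymphocyte markers, all present in the table and 4 of them tested, summed to 10.8 to 15.7 CPM in KO untreated libraries, against 5.75 to 9.02 CPM in WT DMSO libraries. They summed to 11.8 to 19.4 CPM in KO CDDO-Me and 4.02 to 5.66 CPM in WT CDDO-Me libraries. Ighm, the immunoglobulin M heavy chain, made up most of this sum in KO CDDO-Me livers, but not in WT CDDO-Me livers. Among treated livers Ighm was higher in KO than in WT, with 10.3 ± 3.76 CPM in KO CDDO-Me and 1.77 ± 0.32 CPM in WT CDDO-Me livers (SD, n = 4 each; log2 2.51, adjusted p = 8.11e-05, edgeR). The 14 Kupffer cell and macrophage markers summed to 336 to 600.2 CPM in KO untreated libraries, against 320.0 to 391 CPM in WT DMSO libraries. Adgre1 and Msr1 were higher in KO untreated livers. Under drug the same list summed to 476 to 770 CPM in KO CDDO-Me and 590 to 796 CPM in WT CDDO-Me libraries. Of these markers Marco was lower in the KO group under drug.

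Pancreatic acinar markers, 4 of 10 in the table with Cela3b at 0 throughout, summed to 8.84 to 17.7 CPM in KO untreated libraries, against 3.34 to 9.17 CPM in WT DMSO libraries. They summed to 7.37 to 16.7 CPM in KO CDDO-Me and 2.06 to 5.22 CPM in WT CDDO-Me libraries. Under drug Cela1 was higher in the KO group (log2 KO minus WT 1.58, adjusted p = 0.0317, edgeR). Of all 83 tested markers in 11 lists, 2 passed without drug, both higher in KO untreated livers, and 7 under drug, 3 higher and 4 lower in KO CDDO-Me livers. Of all tested genes 1.38% passed without drug and 3.3% under drug. The others under drug were Ass1, higher, and Stab1, Ecm1 and Pparg, lower in KO CDDO-Me livers. Summed levels lay lower without overlap under drug for 4 lists: stellate cells and fibroblasts, with 341 to 497 CPM in KO CDDO-Me libraries, against 599 to 714 CPM in WT CDDO-Me libraries, and adipocytes, with 11.7 to 14.3 CPM against 19.6 to 24.5 CPM in the same groups. The other 2 were neutrophils and monocytes, with 7.30 to 9.59 CPM in KO CDDO-Me libraries, against 10.9 to 19.3 CPM in WT CDDO-Me libraries, and mesothelial cells, with 161 to 257 CPM against 259.6 to 294 CPM in the same groups. Without drug 7 of 14 stellate and fibroblast markers had an unadjusted p under 0.05 and 0 passed by edgeR (1 by DESeq2), with a median log2 difference of 0.59. Lists for neutrophils and monocytes, cholangiocytes, erythroid and mesothelial cells had 0 genes passing in either comparison by edgeR. Over all 11 lists 30 of 83 markers had an unadjusted p under 0.05 without drug and 24 under drug, counts given without their share over all genes. DESeq2 called 8 and 11 of the 83, and 657 and 1125 over all genes. The part of these cell types in the levels of Gria3, Clec2h, Ptgds, Fabp5 or the other 6 genes was not tested.

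Families and pathways of the 10 genes were read from 10 lists of 174 further genes, of which 160 were in the table and 90 were tested. Without drug 0 of 90 passed by edgeR, against 1.38% of all genes. DESeq2 called 3 of the 90, and 657 over all genes. By edgeR 14 of the 90 had an unadjusted p under 0.05, a count given without its share over all genes. Under drug 2 of 90 (2.22%) passed by edgeR, against 3.3% of all genes. Hsd3b2, a steroid dehydrogenase of the pathway that Cyp17a1 belongs to, was higher in KO than in WT livers. It had 47.9 ± 9.69 CPM in KO CDDO-Me livers and 23.6 ± 5.97 CPM in WT CDDO-Me livers (SD, n = 4 each; log2 1.02, adjusted p = 0.0404, edgeR). Without drug it averaged 70.8 CPM in KO untreated and 37.2 CPM in WT DMSO livers, so its mean was lower with drug in both genotypes. Its drug difference averaged over genotypes did not pass (log2 -0.61, adjusted p = 0.0873, edgeR), and the KO part also holds the vehicle. With the drug averaged over genotypes 1 of 90 relatives (1.11%) passed, against 1.19% of all genes. It was Clec2d, a relative of Clec2h, which fell, at 133 and 101 CPM on average in KO CDDO-Me and WT CDDO-Me livers, against 235 and 171 CPM in KO untreated and WT DMSO livers (log2 -0.79, adjusted p = 0.0361, edgeR).

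The relatives with reads had these levels. Of the 17 other glutamate receptor subunits 3 were tested, and the kainate receptor gene Grik5 averaged 10.8 CPM in KO untreated livers, against 10.9 CPM in WT DMSO livers. Of 15 other nicotinic subunits 2 were tested, Chrna2 and the Chrna4 partner Chrnb2, which averaged 2.58 CPM in KO CDDO-Me and 1.78 CPM in WT CDDO-Me livers (log2 0.56, adjusted p = 0.279, edgeR). Hpgds, the other prostaglandin D synthase, averaged 1.90 CPM in KO untreated livers, against 1.70 CPM in WT DMSO livers. Fabp1, the main fatty acid carrier of hepatocytes, averaged 1027 CPM in KO untreated livers, against 963 CPM in WT DMSO livers, and 877 CPM in KO CDDO-Me and 879 CPM in WT CDDO-Me livers. Uhrf2, the partner of human ZNF618, averaged 44.3 CPM in KO untreated livers, against 41.6 CPM in WT DMSO livers.

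Of 16 tested male-biased and 12 tested female-biased liver genes, 1 passed without drug, the male-biased Cyp2u1 (log2 1.28, adjusted p = 0.00696, edgeR), higher in KO untreated livers. Under drug 2 passed, the female-biased Cyp2a4 (log2 -7.76, adjusted p = 1.42e-05, edgeR) and the male-biased Ugt2b38 (log2 -1.97, adjusted p = 0.0238, edgeR), both lower in KO CDDO-Me livers. The 20 NRF2 target genes had 9 lower without drug and 18 lower under drug in KO livers, and 13 of 20 were higher with the drug averaged over genotypes. The 10 genes have the opposite sign by choice.

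The 10 genes lie on 9 chromosomes. Ptgds and Chrna4 share chromosome 2 with Nfe2l2, at 50.2 Mb and 105 Mb from it. Of 174 tested genes starting within 500 kb of a start of the 10, 5 (2.87%) passed without drug, against 1.38% of all genes, with 2 higher and 3 lower in KO untreated livers. Under drug 7 (4.02%) passed, against 3.3% of all genes, with 3 higher and 4 lower in KO CDDO-Me livers. BC029214, which starts 9.0 kb downstream of the Ptgds start on the same strand (chromosome 2, 25455141 to 25461094), was higher in both, by 1.63 without drug (adjusted p = 0.0298, edgeR) and by 2.12 under drug (adjusted p = 0.00285, edgeR) on the log2 scale. It was the 1 neighbour of the 10 named that passed in both comparisons.

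Without drug Hamp2 near Atp4a was higher in KO untreated livers (log2 KO untreated minus WT DMSO 1.74, adjusted p = 0.0303, edgeR). A2ml1 near Clec2h (-1.20, adjusted p = 0.0207, edgeR) and Orm3 near Zfp618 (-3.14, adjusted p = 0.0142, edgeR) were lower there. Hamp, the paralog of Hamp2 also near Atp4a, was lower in the same comparison (-1.95, adjusted p = 0.0466, edgeR) and was named after its value was seen. Under drug Ppp4r4 near Asb2 (log2 KO CDDO-Me minus WT CDDO-Me 1.17) and Impa1 near Fabp5 (0.51) were higher in KO CDDO-Me livers. Clip3 (-1.79), Usf2-ps1 (-1.36) and Hspb6 (-0.97) near Atp4a and Uap1l1 near Ptgds (-0.80) were lower in the same comparison. Gria3 had 0 tested neighbours.

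**Figure D5:**
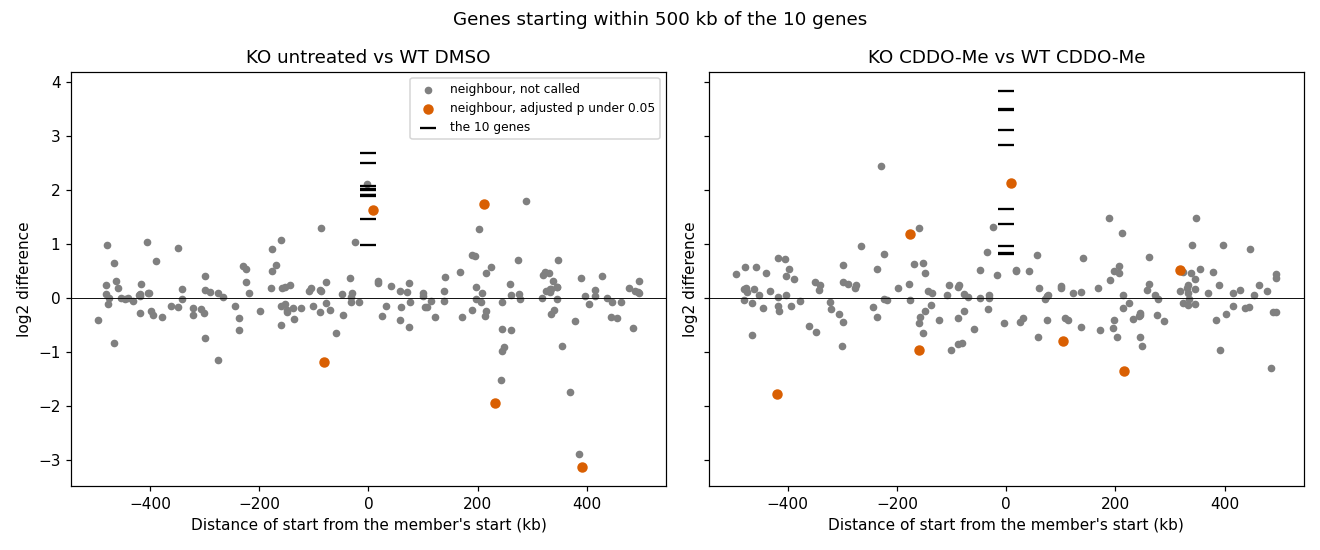
Log2 difference KO minus WT of 174 tested genes against the distance in kb of their start from the start of the nearby gene of the 10 (positive is downstream), without drug (left) and under drug (right). Horizontal ticks at 0 kb are the 10 genes, and the coloured point nearest to them is BC029214, at 9.0 kb from Ptgds, with 1.63 and 2.12.

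For each of the 10 genes the tested gene with the most similar pattern was taken as the one with the smallest root-mean-square (RMS) difference of standardized log2 CPM over the 16 libraries, a description without a test. Chrna4 had the closest match, Fasn, the fatty acid synthase gene, at an RMS difference of 0.225. Fasn averaged 2093 CPM in KO untreated, 1659 CPM in WT DMSO, 1225 CPM in KO CDDO-Me and 554 CPM in WT CDDO-Me livers. Next came Atp4a with Amdhd1, an enzyme of histidine breakdown, at 0.339, and Cyp17a1 with Gls2, the liver glutaminase, at 0.389. Zfp618 with Maml3 was at 0.392, Fabp5 with Appl1 at 0.402, Gria3 with Arsg at 0.414 and Ptgds with Arhgap26 at 0.43. Adamts7 with Azin2 was at 0.434, Asb2 with Sytl4 at 0.466 and Clec2h with Gimap6 at 0.497. Among the 10, Gria3 and Zfp618 were nearest to each other at 0.36, closer than either was to any other tested gene.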

How the data were processed

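Liver RNA depleted of ribosomal RNA was sequenced as paired reads from directional libraries, per the labels' protocols. The deposited counts are whole numbers of reads for each of 33730 Ensembl IDs in 16 libraries, with 0 columns of other samples. The deposited FPKM table, made by the authors, can be rebuilt from the counts, with a single length for each gene and the total of the library, to within a relative deviation of 8.9e-07. The build GRCm38.p5 and the tools TopHat2 2.1.0, HTSeq 0.6.1p1, cutadapt 1.2.1, DESeq2 and CASAVA 1.8.2 are named, without roles, per the submitters' processing notes. Not given in the sources used here are the annotation release, the strand setting, filters and how reads with several matches were treated. GENCODE M21 (GRCm38) matched 33586 IDs for symbols and positions and left 144 unmatched.

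The main test was edgeR 4.0.16 (quasi-likelihood) in R 4.3.3 over 4 groups, with TMM scaling, filterByExpr by group (16206 genes kept) and 12 residual degrees of freedom. Calls are at an adjusted p under 0.05 (Benjamini-Hochberg, over all genes tested). Contrasts are KO minus WT, CDDO-Me minus control, and the drug averaged over genotypes. CPM values use TMM library sizes and are means ± SD. Alternatives were RLE size factors, DESeq2 1.42.0, no filter, limma 3.58.1 on log2(FPKM + 1) and log2(FPKM + 0.1), where FPKM understates the change of low genes, a replicate block, fits of the 2 groups alone, leaving out each library, and leaving out libraries rich in intronic or ribosomal RNA reads. Chi-square per degree of freedom was at least 15.1 for every pair of libraries, so all 16 were counted as separate libraries. Replicate numbers are taken from the titles, which do not say what they mark. Deviations of same-numbered libraries correlated at 0.371 to 0.483 between KO untreated and WT DMSO, with all 4 pairs over 0.1, but not across all 4 groups, and the fits without a block were kept as the main ones. The scripts were checked on simulated counts. Depth limits the precision of low genes, and read counts without molecular identifiers cover counting error only.

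The 10 genes, the gene lists and the tests were chosen with earlier results of these data known. Named besides the 10 are Nfe2l2, genes of the family and liver programme lists that passed in either genotype comparison (up to 25 by smallest p), the 1 gene nearest in pattern to each of the 10, and neighbours within 500 kb that passed (up to 10). Of the 23 list genes so named, NRF2 targets are given as counts. Markers, Tbc1d2b, Clec2d and the family members without a call were named after their values were seen. Some results of the family lists are not reported here.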

Additional observations from a re-analysis of the deposited data

Results flagged for a closer look

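In 40 sets of 4 libraries (10 genes in 4 groups), 3 had 1 library far from the other 3 by Dixon's criterion, where chance gives about 1 in 20. Ptgds was at 8.94 CPM in KO CDDO-Me 4, against 3.04 to 3.35 CPM in the other KO CDDO-Me libraries. Atp4a was at 5.97 CPM in KO untreated 4, against 2.12 to 2.59 CPM in the other KO untreated libraries. Cyp17a1 was at 78.8 CPM in KO untreated 4, against 15.3 to 16.8 CPM in the other KO untreated libraries. Without KO untreated 4 the log2 difference KO untreated minus WT DMSO was 1.46 for Atp4a and 1.08 for Cyp17a1, and without KO CDDO-Me 4 the difference KO CDDO-Me minus WT CDDO-Me was 2.96 for Ptgds.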

How the results depend on the processing

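The number of the 10 genes called for the drug averaged over genotypes was 1, and 3 with DESeq2, 2 with no filter on low counts, 0 with limma on log2(FPKM + 1), with or without a filter, 0 without the 4 intron-rich libraries, 4 when both WT DMSO 4 and WT CDDO-Me 1 were left out, 0 with only the libraries low in ribosomal RNA, and 1 to 3 when each library was left out in turn. Chrna4 lost its call in the limma fits on log2(FPKM + 1), at -1.76 (adjusted p = 0.0778 with a filter and 0.152 without), and kept it in all 16 fits that left out 1 library (-3.90 to -3.31). Over all genes, 193 were called for the averaged drug, and 1304 with DESeq2, 123 with limma at log2(FPKM + 1), 120 at log2(FPKM + 0.1), 69 with no filter, 22 without the intron-rich libraries, 1936 without the WT libraries low in ribosomal RNA (WT DMSO 4, WT CDDO-Me 1), and 46 to 1859 with each library left out. For KO untreated vs WT DMSO the count was 223, and 657 with DESeq2, 122 with limma and no filter, 86 without the intron-rich libraries, 1461 with the libraries low in ribosomal RNA, 20.0 with the 2 groups alone, and 104 to 271 with each library left out. Under drug, KO CDDO-Me minus WT CDDO-Me, it was 534, and 1125 with DESeq2, 859 and 896 with limma at the pseudocounts 1 and 0.1, 1482 without the intron-rich libraries, 88 with the libraries low in ribosomal RNA, 2045 with the 2 groups alone, and 265 to 820.0 with each library left out. Of the 90 relatives, 0 were called without drug, 3 with DESeq2, 12 with the libraries low in ribosomal RNA and 0 to 1 with each library left out. Under drug 2 relatives were called, 4 with DESeq2, 1 with no filter, 6 without the intron-rich libraries, 1 without these WT libraries, 0 with the libraries low in ribosomal RNA, 10 with the 2 groups alone, and 0 to 3 with each library left out.

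The averaged drug difference changed sign for Asb2, at -0.13 with limma on log2(FPKM + 1), with or without a filter, -0.23 at log2(FPKM + 0.1), -0.085 when both WT DMSO 4 and WT CDDO-Me 1 were left out, and -0.10 to 0.14 with each library left out. It changed sign for Cyp17a1, at 0.82 with the libraries low in ribosomal RNA and -0.56 to 0.12 with each library left out, and for Fabp5, at 0.13 without these WT libraries and -0.35 to 0.19 with each library left out. The causes were not tested. On the FPKM scale the median of all genes shifted to 0.17 for KO untreated vs WT DMSO and -0.19 for the averaged drug at log2(FPKM + 0.1), and 63.1% of the genes called without drug were higher in KO untreated livers at log2(FPKM + 1), against 29.6% on counts. The KO minus WT differences of the 10 genes changed sign in 0 settings, a direction that their choice fixes.

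Over all 4 groups the replicate numbers did not pair the libraries: 12 of 24 pairs with the same number had deviations correlated over 0.1 (r of -0.454 to 0.483), and 7 of 16 libraries correlated best with their own number. Between KO untreated and WT DMSO all 4 pairs were over 0.1 (r of 0.371 to 0.483), and there the block left 250 genes called, against 223. With a replicate block, 3 of the 10 genes were called for the averaged drug, Chrna4 (adjusted p = 0.0215, edgeR), Ptgds (0.032) and Zfp618 (0.0284), with Asb2 at -0.028, and the counts over all genes were 1149 for the averaged drug and 811 for the genotypes under drug, with 4 relatives called under drug.

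Depth limits the low WT CDDO-Me levels of Chrna4, Atp4a and Ptgds, which rest on 1 to 6 reads in 3 of 4 libraries.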
